A study of Mus musculus with 3 samples.

Results

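Crosslinks of Tra2β to small nuclear and small nucleolar RNAs were examined in testis of adult wild type mice, where 162 of 3523 annotated genes of these classes carried at least 1 crosslink in every library. The genes were those that the GENCODE vM39 annotation of the mouse genome GRCm39 types as snRNA, snoRNA, scaRNA, ribozyme or misc_RNA, and a crosslink had to lie inside the gene on its own strand. The 162 genes comprised 143 snRNAs, 11 misc_RNAs, 7 snoRNAs and 1 ribozyme, and no scaRNA. They were chosen by these crosslink counts, so their levels are given as a description, with no test. In iCLIP, proteins are fixed to their RNA by ultraviolet light and recovered with an antibody, and reverse transcription tends to stop next to the joined nucleotide. Here a crosslink is 1 unique cDNA at 1 nucleotide, and a level is given in CPM, which are crosslinks scaled to the crosslink total of the library. All 3 libraries belonged to 1 group, from testes that were minced before crosslinking, of mixed cell type, and used a polyclonal antibody against Tra2β. They came from biological replicate testes and held 348033, 619571 and 488719 crosslinks in replicates 1, 2 and 3. Input, IgG and knockout libraries were not analysed here, so contact by Tra2β could not be told apart from RNA that is abundant or that follows the protein through the purification.

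Tra2β is a nuclear splicing regulator related to the SR proteins, and it binds purine-rich RNA rich in GAA. The small nuclear RNAs are the RNA part of the machinery with which it works. U1 pairs with the 5′ splice site and U2 with the branch site, U5 touches the exons on both sides, and U4 and U6 join as a pair before U6 forms part of the catalytic centre. U11, U12, U4atac and U6atac have the corresponding places in the minor spliceosome, which removes a small class of introns. U7 directs the 3′ end formation of histone mRNAs. Most of these RNAs carry a ring of Sm proteins on a U-rich single-stranded site, while U6 and 7SK do not. 7SK holds the elongation kinase P-TEFb inactive, RNase MRP and RNase P are RNA enzymes, and most snoRNAs are cut out of host introns and guide chemical modification of ribosomal RNA, which takes place in the nucleolus.

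The sequences that the results turn on are shown from RNA 5′ end to 3′ end, in the letters of the GRCm39 genome (T for U). Capitals mark the 30 nt with the most crosslinks within each RNA, summed over the libraries. The U1 gene with the most crosslinks lay at chr12:54743567-54743730 on the plus strand, a U1 gene with another pattern at chr6:53410959-53411122 (plus), the leading U2 gene at chr12:59087121-59087311 (plus), U11 at chr4:131997391-131997524 (minus), and U12 at chr15:83033845-83033995 (plus). Of 7SK, positions 201 to 331 are shown (chr9:78082585-78082715, minus).
Gm22513 (U1): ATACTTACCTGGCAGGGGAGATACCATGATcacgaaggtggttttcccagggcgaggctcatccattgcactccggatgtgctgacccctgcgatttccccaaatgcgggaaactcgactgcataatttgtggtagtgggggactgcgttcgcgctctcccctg
Gm25818 (U1): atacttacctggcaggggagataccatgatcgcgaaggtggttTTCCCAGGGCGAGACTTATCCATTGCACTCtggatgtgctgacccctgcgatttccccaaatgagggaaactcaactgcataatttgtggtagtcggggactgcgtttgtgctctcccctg
Gm22973 (U2): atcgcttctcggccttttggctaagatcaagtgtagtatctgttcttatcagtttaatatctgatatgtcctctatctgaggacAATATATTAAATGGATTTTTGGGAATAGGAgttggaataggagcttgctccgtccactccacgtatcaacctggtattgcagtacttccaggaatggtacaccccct
Rnu11 (U11): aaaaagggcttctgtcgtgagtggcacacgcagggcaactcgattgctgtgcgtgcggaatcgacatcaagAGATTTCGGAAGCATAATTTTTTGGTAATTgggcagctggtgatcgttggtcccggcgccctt
Rnu12 (U12): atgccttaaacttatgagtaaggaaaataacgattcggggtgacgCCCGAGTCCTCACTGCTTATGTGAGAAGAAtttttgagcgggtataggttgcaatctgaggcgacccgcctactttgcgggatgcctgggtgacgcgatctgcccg
Rn7sk (7SK, 3′ part): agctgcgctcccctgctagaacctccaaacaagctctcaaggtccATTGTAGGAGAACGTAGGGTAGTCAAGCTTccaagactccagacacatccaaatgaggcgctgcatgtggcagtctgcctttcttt

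Crosslinks on all 3523 genes numbered 1624, 10385 and 2610 in replicates 1, 2 and 3. This was 0.467% of the crosslinks of replicate 1 (95% Clopper-Pearson interval 0.444 to 0.490), 1.68% of replicate 2 (1.64 to 1.71) and 0.534% of replicate 3 (0.514 to 0.555), on average 0.892% ± 0.680 (SD, n = 3). The antisense strand of the same spans held 25, 50 and 31 crosslinks, so the signal lay on the strand of the RNAs. Replicate 2 stood apart, and without it the mean was 0.5003%. These intervals cover counting error only. Germ cell markers were crosslinked in every library. Of 8 genes (Ddx4, Dazl, Sycp3, Prm1, Prm2, Tnp1, Tnp2 and Acrv1) none was at 0 in any library, and their summed level was 2411, 581 and 2985 CPM in replicates 1, 2 and 3. Replicate 2, with the highest snRNA level, thus had the lowest germ cell marker level, and the part of one in the other was not tested. The 3 Sertoli cell markers Sox9, Wt1 and Amh summed to 83.3, 96.8 and 75.7 CPM, with Amh at 0, and the Leydig cell markers Cyp17a1, Insl3 and Star to 89.1, 35.5 and 83.9 CPM. Of the markers of other tissues, Alb and Hbb-bs were at 0 and Ptprc had 0, 9 and 2 crosslinks.

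The high share of replicate 2 came mostly from snRNA genes. They held 0.308%, 1.45% and 0.315% of the crosslinks of replicates 1, 2 and 3, whereas misc_RNA genes, which include 7SK, held 0.142%, 0.167% and 0.198%. The snoRNA genes held 55, 301 and 84 crosslinks in all, the ribozyme genes 2, 40 and 10 and the scaRNA genes 1, 26 and 8. Their CPM in replicate 2 was 2.95, 4.93 and 4.36 times the mean of the other replicates, against 4.66 for snRNA genes. Over the 162 genes, 94 had their highest CPM in replicate 2, 41 in replicate 3 and 27 in replicate 1. Spearman's rho of the crosslink counts over these 162 genes, which share each library's depth, was 0.594 between replicates 1 and 2, 0.699 between 1 and 3 and 0.570 between 2 and 3. Replicates 1 and 3 were thus closest to each other in the order of the genes.

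Few genes held most of the signal. Gm22513, a U1 gene, and Rn7sk together held 43.2%, 41.1% and 45.6% of the crosslinks of the 162 genes in replicates 1, 2 and 3, and the 20 genes with the highest mean CPM held 71.9%, 76.3% and 66.4%. At the other end, 79 genes had a lowest library count of 1, of which 68 were snRNAs, 6 misc_RNAs and 5 snoRNAs, and 9 genes had exactly 1 crosslink in each library. Just inside the rule lay the U1 genes Gm22220, with 5, 163 and 1 crosslinks, and Gm25587, with 1, 80 and 2. Just outside lay the U1 genes Gm22456, with 3, 102 and 0, and Gm23238, with 0, 101 and 4. A further 209 genes had crosslinks in 2 libraries, 436 in 1 and 2716 in none.

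**Figure D1:**
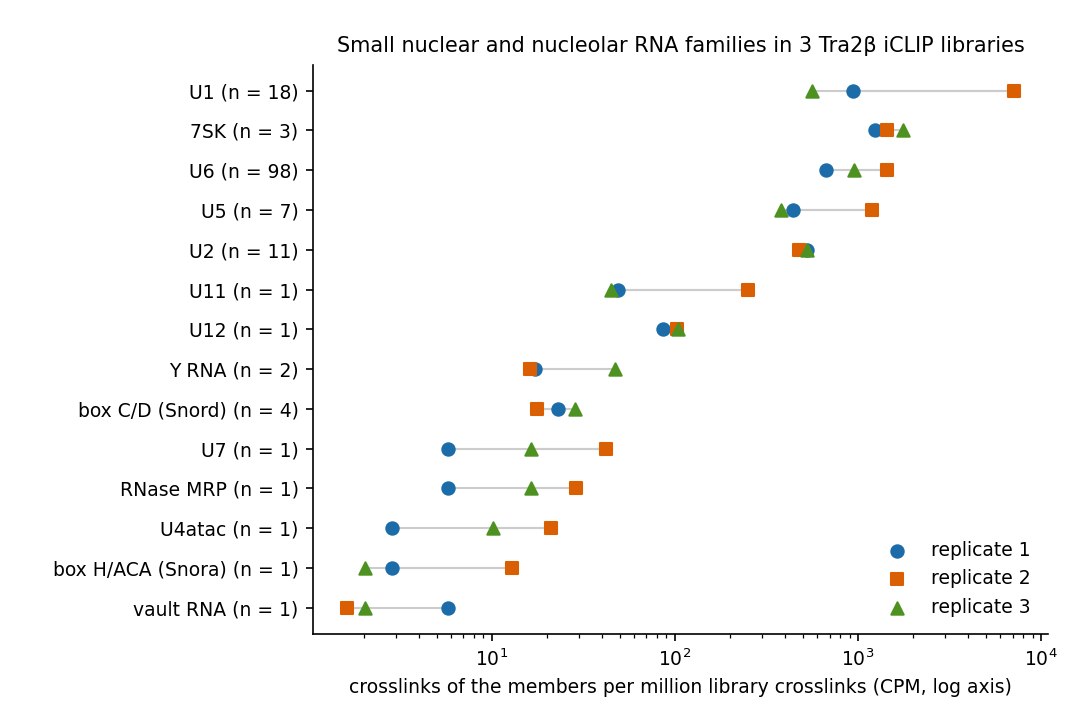
Level of each named RNA family in the 3 libraries, as summed crosslinks of its genes with crosslinks in all libraries scaled to the library total (CPM, log axis); each point is 1 library and n is the number of genes. U1 in replicate 2 lies far to the right of the other libraries, while 7SK, U2 and U12 have their 3 points close together.

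The most variable of the large families was U1, which recognises the 5′ splice site. Crosslinks lay in every library on 18 of 85 genes named as U1 or aligned to a named U1 gene at 80% identity or more. These 18 genes held 328, 4421 and 276 crosslinks in replicates 1, 2 and 3, which is 942, 7136 and 565 CPM. Over all 85 genes the CPM of replicate 2 was 11.2 times the mean of the other replicates. Gm22513 carried 203, 2298 and 177 crosslinks (1551 ± 1872 CPM, SD, n = 3), so that its spread between libraries was larger than its mean. Gm25818 carried 58, 236 and 25 and overlaps an exon of Creb5, while Gm23511 carried 3, 280 and 7. All 3 of these genes were highest in replicate 2, also where replicates 1 and 3 had few crosslinks.

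U2, which pairs with the branch site, was the steadiest of the large families. The 11 of 21 U2 genes with crosslinks in all libraries held 184, 294 and 258 crosslinks, or 529, 475 and 528 CPM (510 ± 31.1, SD, n = 3). Gm22973 carried 63, 113 and 85 crosslinks (179 ± 4.54 CPM), Gm25360 carried 51, 67 and 53 and Gm25202 carried 20, 18 and 40. In contrast to U1, the level of U2 in replicate 2 lay below that of both other libraries, by 0.905 times over all 21 genes.

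U5, which holds the exons together during splicing, had the highest proportion of crosslinked genes among the large families, 7 of 11. They held 153, 740 and 186 crosslinks, or 440, 1194 and 381 CPM, and over all U5 genes replicate 2 was 2.91 times the mean of the other libraries. Gm25099 carried 44, 220 and 58 crosslinks, Gm25313 carried 35, 116 and 46, and the named gene Rnu5g carried 34, 74 and 36 (96.9 ± 22.9 CPM). Each of the 3 was highest in replicate 2, Rnu5g by the smallest margin.

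U6, the RNA of the catalytic centre, contributed the most genes, 98 of 688. They held 233, 897 and 466 crosslinks in all, or 669, 1448 and 954 CPM (1024 ± 394, SD, n = 3). Gm23402 carried 4, 116 and 20 crosslinks, Gm22740 carried 6, 41 and 14, and Gm26129, in an intron of Arid4b, carried 9, 15 and 28. Gm23402 and Gm22740 were highest in replicate 2 and Gm26129 in replicate 3. U4, the partner of U6, had no gene named as such in the annotation. The snRNA genes Gm24265 (6, 46 and 11 crosslinks) and Gm24407 (1, 42 and 4), which are similar to each other and could not be aligned to a named gene, are therefore given without a family.

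The minor spliceosome was represented by 1 gene for each of 3 of its RNAs. Rnu12, which pairs with the branch site of minor introns, carried 30, 64 and 51 crosslinks (98.0 ± 10.2 CPM, SD, n = 3), nearly level between libraries. Rnu11, which reads their 5′ splice site, carried 17, 155 and 22 (115 ± 117 CPM), with replicate 2 far above the others. Rnu4atac carried 1, 13 and 5. Rnu7, the U7 RNA of histone mRNA processing, carried 2, 26 and 8 crosslinks and was the only U7 gene of 50 with crosslinks in all libraries.

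7SK behaved differently from U1 between libraries. Rn7sk, at chr9:78082585-78082915 on the minus strand, carried 427, 879 and 862 crosslinks, or 1227, 1419 and 1764 CPM (1470 ± 272, SD, n = 3), and its lowest level was in replicate 1. The 7SK-like genes Gm55801 (1, 14 and 2 crosslinks) and Gm54658 (2, 2 and 2) added little, and the other genes aligned to 7SK did not have crosslinks in every library.

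Among the remaining misc_RNA genes, Gm55521 lies within an exon of Malat1, a long nuclear RNA, and carried 29, 34 and 48 crosslinks (78.8 ± 22.0 CPM, SD, n = 3). Gm55523 and Gm55524 lie within Neat1, with 1, 2 and 4 and with 1, 1 and 1 crosslinks, and Gm56424 lies within Tug1, with 3, 4 and 2. For these 4 genes, crosslinks to the small gene and to the long RNA cannot be told apart. The Y RNAs, which bind the Ro protein, were represented by Rny3 (5, 4 and 19) and Rny1 (1, 6 and 4), and the vault RNA Vaultrc5 carried 2, 1 and 1. The RNase MRP gene Rmrp, the only ribozyme gene with crosslinks in every library, carried 2, 18 and 8. Rpph1, the RNA of RNase P, carried 0, 22 and 2. The telomerase RNA gene Terc had 0, 1 and 0, and the signal recognition particle genes Rn7s1 and Rn7s2 had 0, 0 and 0 and 0, 4 and 0; a count of 0 allows up to 8.62, 4.84 and 6.14 CPM in replicates 1, 2 and 3.

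**Figure D2:**
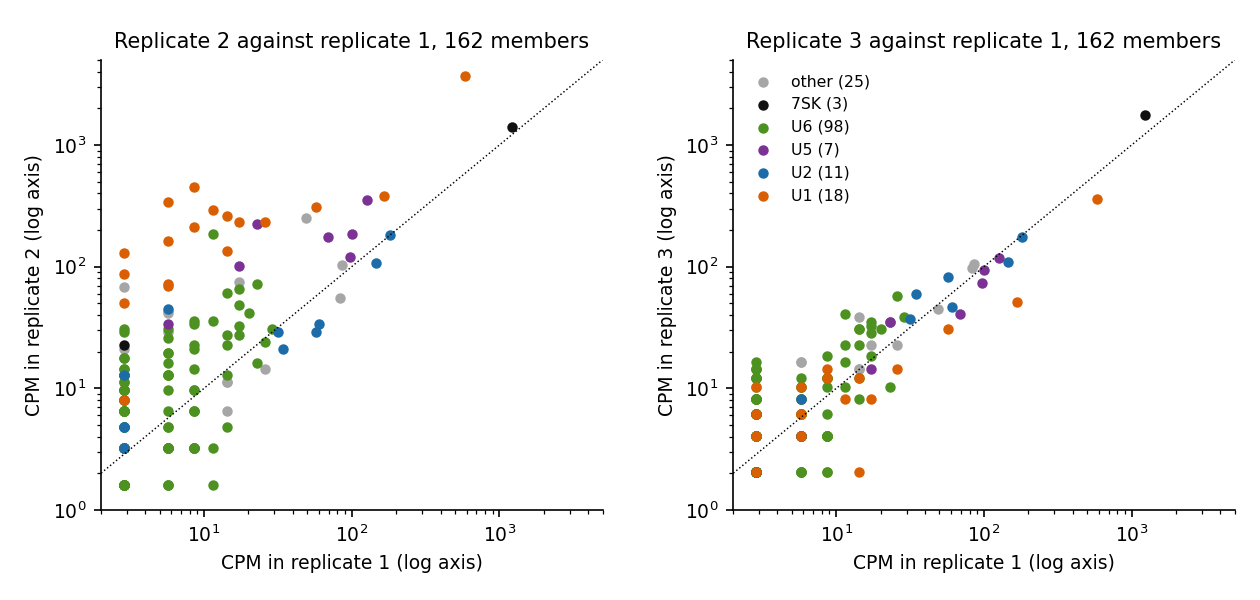
CPM of each of the 162 genes in replicate 2 (left) and replicate 3 (right) against replicate 1 (log axes); each point is 1 gene, coloured by family with the number of genes in the legend, and the dotted line marks equal CPM. U1 genes lie above the line in the left panel, whereas Rn7sk (1227, 1419 and 1764 CPM) stays near it in both panels.

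snoRNAs were seldom crosslinked, although 1507 genes are annotated. The 7 with crosslinks in each library held 19, 30 and 27 crosslinks together, or 54.6, 48.4 and 55.2 CPM (52.8 ± 3.77, SD, n = 3). All 1507 genes held 158, 486 and 172 CPM, so the even level belongs to the 7 chosen genes only. Gm23262, within an exon of the translation factor gene Eif4g2, carried 9, 9 and 11. Snord13, the U13 RNA, which guides acetylation of ribosomal RNA, carried 5, 7 and 7. Snora81 (1, 8 and 1), in Eif4a2, was the only one of the box H/ACA type, which guides pseudouridylation. Gm23301 (1, 1 and 5), in an intron of Rpl17, Snord15b (1, 2 and 1), in Rps3, Snord19 (1, 1 and 1), in Gnl3, and Gm22879 (1, 2 and 1), in Rpl7a, completed the set. U3 and U8, which take part in cleavage of the ribosomal RNA precursor, missed a library: Snord3a had 0, 20 and 3 crosslinks and Snord118 had 2, 13 and 0. Of the 7 genes, 6 overlap an exon annotated for another gene, so that crosslinks to the host mRNA or a readthrough transcript cannot be told apart from crosslinks to the snoRNA.

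Of the 162 genes, 24 overlap a same-strand exon annotated for another gene or transcript entry, among them Rnu11, Rnu7, Rmrp, Rny3, Gm25360 and Gm24871, and the remaining 138 do not. Many of these genes have near-identical copies, which limits what a position or a gene can say. How reads with several possible loci were placed was not given in the sources used here. Of the 162 genes, 95 had another genome locus of at least 95% identity over at least 90% of their length, and 126 had one at 90% identity. For U6 this was 70 of 98 genes, with a median of 75 such copies. Gm22513 had 21, Gm22973 had 9, Rnu12 had 3, and Rn7sk and Rnu11 had 0. Genes with an exact full-length copy elsewhere numbered 284 and held 33, 254 and 70 crosslinks in all, against 1591, 10158 and 2543 on the other 3239 genes, which include Gm22513 and Rn7sk (genes that overlap each other are each counted here). Among snRNA genes, 62 of 95 with such a copy had a crosslink in at least 1 library, and 470 of 1286 without one. In every library these were 15 of 95 and 128 of 1286. The named loci Rnu1a1 (0, 1 and 0 crosslinks), Rnu1b1 (0, 0 and 0), Rnu1b2 (0, 0 and 0), Rnu1b6 (0, 2 and 0), Rnu2-10 (0, 0 and 0) and Rnu6 (0, 1 and 1) had 2 crosslinks or fewer in each library. All 183 snoRNA genes with an exact copy had 0 crosslinks in each library.

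How far a read can be placed was measured by whether the 30 nt after a position occur at 1 place in the genome, since a cDNA starts next to the crosslink and runs along the RNA. This held for 61.9% of the positions of the 162 genes and for 66.0% (95% Clopper-Pearson interval 63.5 to 68.4), 56.9% (55.8 to 58.0) and 73.0% (71.2 to 74.8) of their crosslinks in replicates 1, 2 and 3, on average 65.3% ± 8.10 (SD, n = 3). For 7SK it held for 96.3%, 95.6% and 96.2% of crosslinks but for 66.8% of positions. For U1 it held for 32.3%, 43.5% and 34.4% of crosslinks and for 66.5% of positions. U5 crosslinks were also mostly at such positions, 96.1%, 86.5% and 95.7% against 53.6% of positions.

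The bases that set a copy apart from the named gene were also located. Gm22513 differed from Rnu1a1 at 1 base, T60C, where positions are counted from 1 at the RNA 5′ end and the base of Rnu1a1 is given first. All of its 203, 2298 and 177 crosslinks lay before position 60, at positions 1 to 59 in replicates 1 and 2 and 1 to 58 in replicate 3, which is 36.0% of its length. Over 87 genes of the same length as their named U1, U2, U5 or U6 reference and with at least 1 difference from it, 2, 7 and 3 crosslinks lay at or after the last difference, or 0.259%, 0.140% and 0.295%. For U1 these were 0, 1 and 0 crosslinks, for U2 and U5 none in any library, and for U6 2, 6 and 3. This stretch is 14.9% of the length, but that is no expected share. A cDNA from a crosslink there holds no base of the RNA that sets the copy apart from its reference. Much of the stretch also lies close to the 3′ end, so nothing is read from the low counts. Rn7sk, not in this comparison, had no crosslinks after position 300 of 331. The 7 U5 genes, with the reference Rnu5g included, had none after position 96 of 116. The cause of the empty 3′ ends was not tested.

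**Figure D3:**
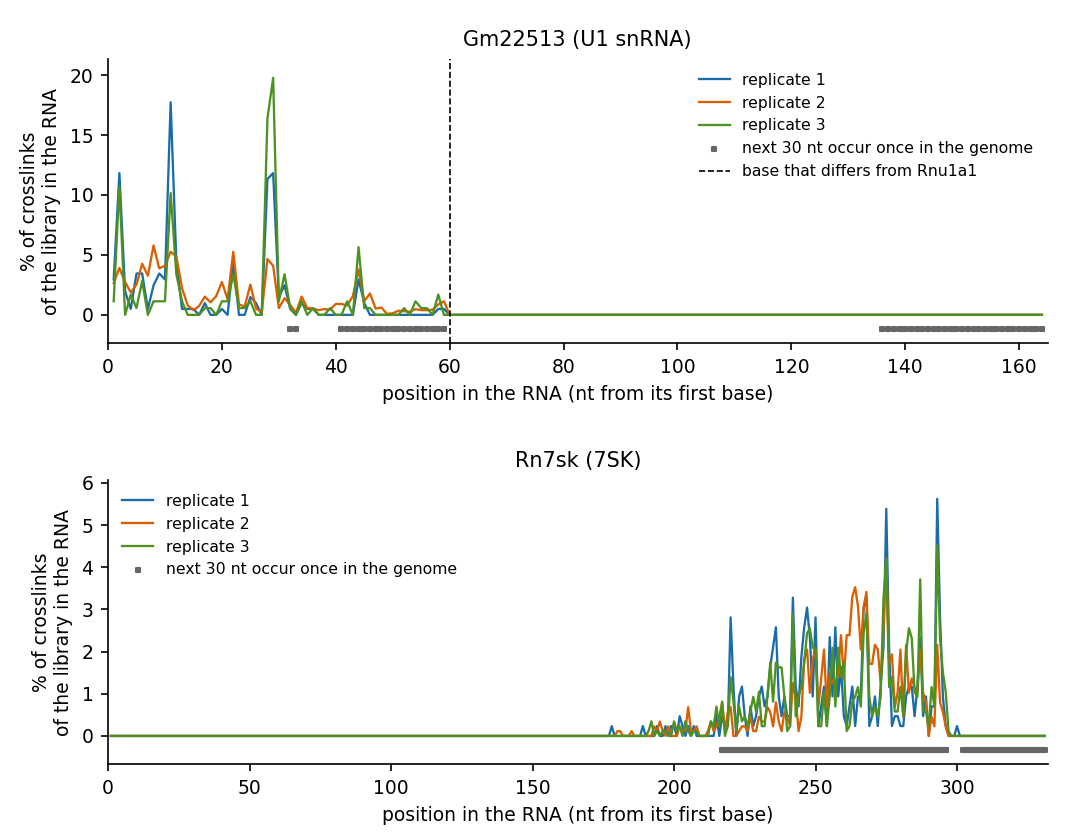
Position of crosslinks along Gm22513 (U1, upper panel) and Rn7sk (7SK, lower panel), as % of the RNA's crosslinks in each library, with grey squares where the next 30 nt occur at 1 place in the genome and a dashed line at the base of Gm22513 that differs from Rnu1a1. Crosslinks of Gm22513 end before the dashed line, and those of Rn7sk lie between positions 178 and 300, mostly over the grey squares.

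Position within the RNA was not used to choose the genes, and it was compared across the midpoint. For every annotated gene of 50 to 500 nt with at least 6 crosslinks in each library, of any type, crosslinks on the 5′ and the 3′ side of the midpoint were set against equal lengths (two-sided exact binomial test in each library, Benjamini-Hochberg adjustment over the genes tested, with a call where every library passed an adjusted p of 0.05 in 1 direction). Of 36 genes tested, 12 (33.3%) had more crosslinks on the 5′ side and 8 (22.2%) more on the 3′ side. Of the 30 tested here among the small nuclear and nucleolar RNAs, the counts were 10 and 7, and 13 were not called, so their shares were close to those of all genes tested, most of which they are. U1, U6 and U12 genes that were called had more on the 5′ side, with 3 U1 genes, 4 U6 genes and Rnu12, and so did Gm55521. U5 genes and Rn7sk had more on the 3′ side, with 5 U5 genes called. U2 was split between Gm25939 (5′) and Gm26316 (3′). Some U1 genes too sparse to test had most crosslinks in the last stretch of a length split into 3: Gm26264 had 3, 112 and 6 of its 3, 132 and 6 there, and Gm26244 had 1, 35 and 4 of its 1, 54 and 5.

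Of the called genes, the U1 genes Gm22513 and Gm25818 had the largest mean log2 fold towards the 5′ side, with 0.5 added to each count. This fold grows with the number of crosslinks where the other side is at or near 0. Gm25939, Gm25618, Gm25380 and Gm22392, with fewer crosslinks, had none on the 3′ side in any library. Gm22513 had 203 crosslinks on the 5′ side against 0 on the 3′ side in replicate 1, 2298 against 0 in replicate 2 and 177 against 0 in replicate 3 (largest adjusted p 1.88e-52, exact binomial test). Its whole 3′ side lies after T60C, its only difference from Rnu1a1. A cDNA from a crosslink there holds no base of the RNA that sets this copy apart, so nothing is read from the 0s. Gm25818 had 58 against 0, 233 against 3 and 25 against 0 (largest adjusted p 2.15e-07, exact binomial test). The leading stretches of Gm22513 and Gm25818 differed all the same, as the capitals in the sequences show. In Gm22513 positions 1 to 30 held 183, 1766 and 144 crosslinks, with position 11 the highest over the libraries summed (36, 121 and 18). In replicate 2 position 8 was higher (133), and in replicate 3 position 29 (35). These 30 nt include the bases with which U1 pairs with the 5′ splice site. The 30 nt after position 11 occur 22 times in the genome. In Gm25818 positions 44 to 73 held 54, 146 and 20, with position 72 the highest (25, 53 and 8), and the 30 nt after it occur at 1 place. Over the 7 U1 genes of 164 nt, positions 1 to 30 held 70.8%, 74.1% and 72.1% of crosslinks in replicates 1, 2 and 3, in 18.3% of the length. Most of these were on Gm22513, and the other 6 genes had 29.5%, 68.4% and 46.0% there. This stretch, like those of U2, U5 and U6 below, was chosen as the 30 nt with the most crosslinks. Its share of crosslinks is thus a description, and nothing is read from its excess over the share of length.

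7SK was one-sided in the other direction. Rn7sk had 427, 879 and 862 crosslinks on the 3′ side and none on the 5′ side (largest adjusted p 4.05e-127, exact binomial test). No position of its 5′ side has a unique following 30-mer, and the first position that has one is 217. Within the 3′ side, positions 246 to 275, the capitals in the sequence, held 188, 541 and 360 crosslinks, and position 275 was the highest over the libraries summed, with 23, 37 and 36. The next were 293 (24, 19 and 39), which was the highest in replicates 1 and 3, and 268 (14, 30 and 25), each a T. Each of these 3 positions had crosslinks in every library.

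Summed, the U5 genes had most of their crosslinks in 1 stretch of 30 nt. Positions 66 to 95 held 97.4%, 81.9% and 94.6% of the crosslinks of the 7 genes in replicates 1, 2 and 3, in 25.9% of the length, and 92.1% of these positions had a unique following 30-mer. Gm25099 had 42 against 2 crosslinks on the 3′ against the 5′ side in replicate 1, 190 against 30 in replicate 2 and 53 against 5 in replicate 3 (largest adjusted p 5.24e-10, exact binomial test). Rnu5g had 34 against 0, 72 against 2 and 35 against 1 (largest adjusted p 4.85e-09, exact binomial test). Gm25313 (3.49e-10), Gm24871 (7.59e-05) and Gm23143 (0.0450), with largest adjusted p of the exact binomial test in parentheses, were called in the same direction. The call of Gm23143 was lost without replicate 2 (0.0525). Gm22265 was not called, with 7 against 1, 80 against 58 and 17 against 0 crosslinks on the 3′ against the 5′ side. Gm23287 was too sparse to test. In replicate 2 it had 8, 7 and 6 crosslinks in the first, middle and last stretch of a length split into 3.

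U2 genes differed among themselves. Positions 83 to 112 held 63.3%, 60.9% and 53.6% of the crosslinks of the 8 genes of 191 nt, in 15.7% of the length. Gm22973 had 31 against 32, 55 against 58 and 32 against 53 crosslinks on the 5′ against the 3′ side and was not called, since the stretch spans the midpoint. Gm25939 had all of its 21, 21 and 23 crosslinks on the 5′ side (largest adjusted p 1.40e-06, exact binomial test), with positions 25 to 54 holding 18, 5 and 14. Gm26316 had 11, 17 and 18 of its 11, 18 and 18 on the 3′ side (largest adjusted p 0.00220, exact binomial test). The last difference of Gm25939 from Rnu2-10 is at position 109 (G109C), and the only difference of Gm26316 is at position 170 (C170T).

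U6 crosslinks were spread more widely. Positions 23 to 52 held 61.9%, 44.3% and 68.2% of the crosslinks of the 78 genes of 107 nt, in 28.0% of the length, and 34.7% of these positions had a unique following 30-mer. The called genes were Gm25618, with 6, 30 and 17 crosslinks on the 5′ side and none on the 3′ side, Gm25380, with 7, 26 and 15 and none, Gm22392, with 6, 20 and 16 and none, and Gm23410, with 9 against 1, 18 against 1 and 17 against 2. Their largest adjusted p lay between 0.0139 and 0.0222 (exact binomial test).

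The minor spliceosomal RNAs differed in their sides. Rnu12 had 26 against 4, 57 against 7 and 44 against 7 crosslinks on the 5′ against the 3′ side (largest adjusted p 8.47e-05, exact binomial test), and its positions 46 to 75 held 24, 45 and 42. Rnu11 had 3 against 14 and 3 against 19 on the 5′ against the 3′ side in replicates 1 and 3 but 93 against 62 in replicate 2, so that the libraries went opposite ways and it was not called. Gm55521 had 25 against 4, 25 against 9 and 42 against 6 (largest adjusted p 0.0148, exact binomial test).

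Genes of the 162 were then restricted to positions that have a unique following 30-mer, while the other genes tested kept all their positions. In this setting 18 genes could be tested and 6 were called. Restricted and called were Gm22513, Gm25818 and Gm55521, all with more on the 5′ side. Mir6236, Gm72623 and mt-Tf, the other called genes, were not restricted. In Gm22513 the unique positions of the 3′ side are 136 to 164, and the 30 nt after each run past its last base. A read of 30 nt from this RNA could not start there, so nothing is read from its call. Of the genes called on all positions, Rn7sk, Rnu12, the U5 genes Rnu5g and Gm25313 and the U2 genes Gm25939 and Gm26316 could not be tested on these positions. Nor could the U1 gene Gm25682 and the U6 genes Gm25618, Gm25380 and Gm22392. Gm25099 (0.674), Gm24871 (0.375) and Gm23410 (0.161) were no longer called, with the largest adjusted p of the exact binomial test in parentheses, and Gm23143 also lost its call. Gm25099 and Gm24871 keep only 6 such positions on the 5′ side. The restriction was chosen after the values had been seen.

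**Figure D4:**
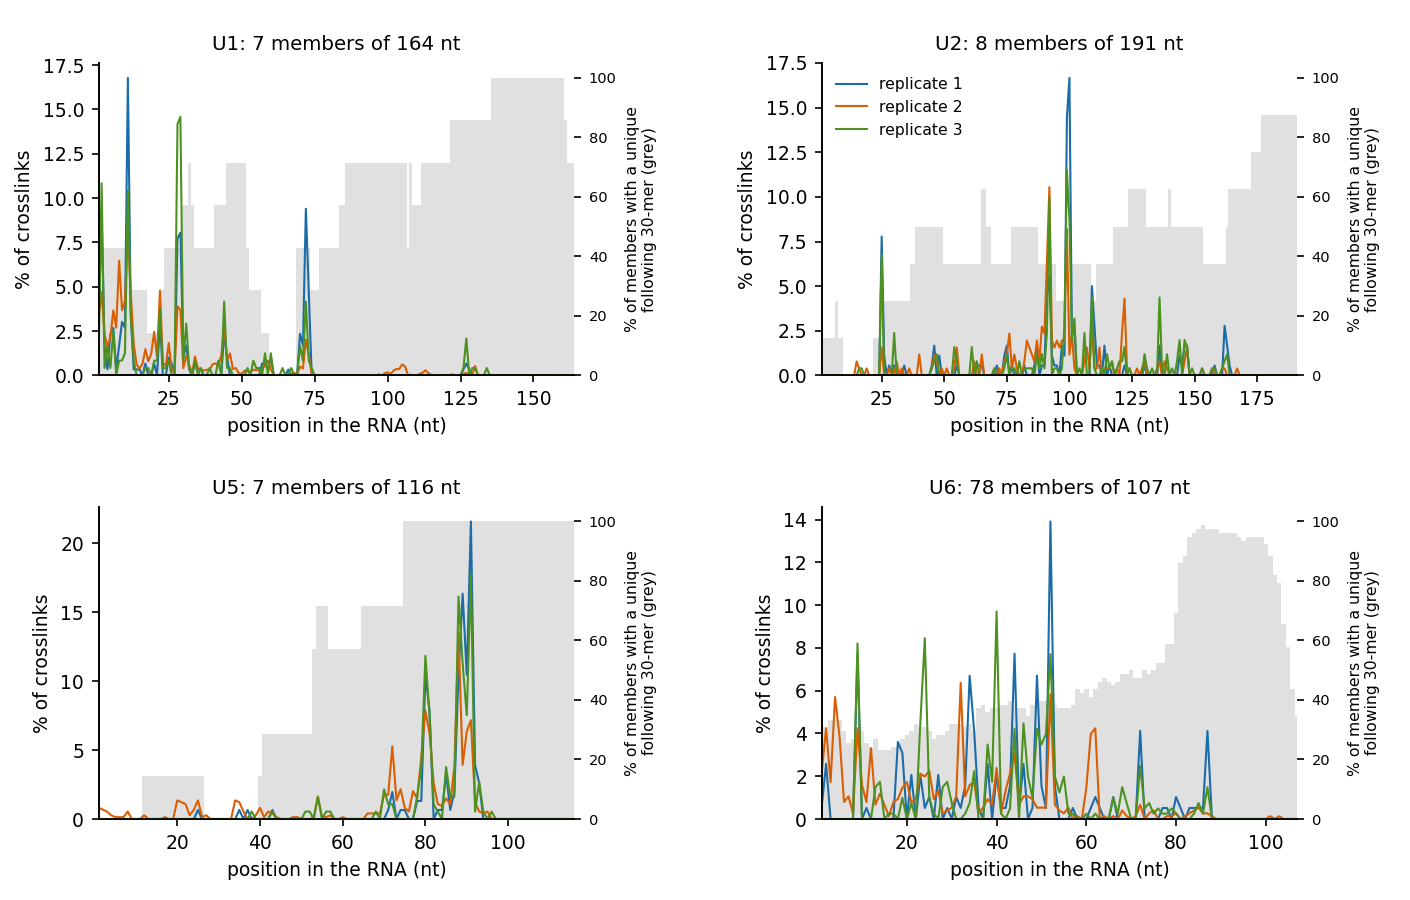
Position of crosslinks along U1, U2, U5 and U6 genes of the most common length, as % of the family's crosslinks in each library (coloured lines, left axis), over the % of genes whose next 30 nt occur at 1 place in the genome (grey, right axis). Crosslinks concentrate at positions 1 to 30 in U1 (29.5%, 68.4% and 46.0% without Gm22513), 83 to 112 in U2, 66 to 95 in U5 and 23 to 52 in U6, and in U5 the concentration lies over the positions that are unique in most genes.

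In Rnu11, Rnu12, and the U2 and the U5 genes of the most common length summed by position, the A that opens a run of T had the highest count over the 3 libraries or shared it. By library, it led or shared the lead in all 3 for Rnu11, but only in replicate 2 for U5 and Rnu12 and only in replicate 3 for U2. The highest position was 91 for U5 in replicates 1 and 3, and 100 and 92 for U2 in replicates 1 and 2. This was noticed in the data and then counted, so it is a description. The letters searched on the RNA strand were ATTTTTG, ATTTTTTG and ATTTGTG, which resemble the U-rich sites that the Sm ring binds. At least 1 of them occurred in 46 of the 162 genes (28.4%), in 240 of 1381 snRNA genes (17.4%) and in 280 of all 3523 genes (7.95%). Within 5 nt on either side of the A lay 72.5%, 42.0% and 64.0% of U5 crosslinks in replicates 1, 2 and 3, against 9.48% of U5 positions. For U2 it was 39.1%, 18.4% and 29.1%, against 5.02% of positions, for Rnu11 41.2%, 20.6% and 54.5%, against 8.21%, and for Rnu12 70.0%, 29.7% and 51.0%, against 7.28%. In each of the 4, the share was lowest in replicate 2.

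The A itself carried 5, 24 and 6 crosslinks at position 88 of Gm25099, 6, 24 and 7 at position 88 of Rnu5g, 4, 17 and 5 at position 88 of Rnu11 and 7, 10 and 5 at position 75 of Rnu12. In Rnu5g, Rnu11 and Gm25099 no position had more crosslinks over the libraries, and the 30 nt after it occur at 1 place in the genome. In Gm22973 position 99, the A of the run, held 6, 14 and 7, just below position 92 (6, 14 and 9). U1 genes summed did not share this: 1.22%, 0.905% and 3.26% of U1 crosslinks lay near such letters, against 4.14% of positions, although 11 of 18 genes hold them. Single U1 genes differed. Gm26244 had 1, 21 and 4 of its 1, 54 and 5 crosslinks within 5 nt of the A, and Gm23686 had 3, 4 and 3 of its 20, 192 and 15. Gm25818 had 0, 3 and 0 of its 58, 236 and 25. In these 3 genes the 30 nt after the A occur at 1 place in the genome. In Gm22513 the A is at position 126, beyond T60C, where it has no crosslinks, and the 30 nt after it occur 14 times in the genome. U6 had 0 crosslinks near these letters in all libraries, with 12 of 98 genes holding them, and 7SK does not hold them.

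Crosslinked bases were rich in T. T made up 41.7%, 33.2% and 39.2% of crosslinks on the 162 genes against 26.6% of their positions, and C made up 14.4%, 20.8% and 17.2% against 22.7%. The pentamer GAAGA, typical of Tra2β target exons, occurred in 98 of the 162 genes (60.5%) and in 1198 of all 3523 genes (34.0%), and among snRNA genes in 90 of the 143 (62.9%) and in 648 of all 1381 (46.9%). It was present in 86 of 98 U6 genes, but in 1 of 18 U1, 1 of 11 U2 and none of 7 U5 genes. Within 30 nt of it lay 16.1%, 10.4% and 19.98% of the crosslinks of the 162 genes, against 29.1% of positions. Most genes with GAAGA were U6 genes, so this share depends on how many crosslinks U6 held. Within 30 nt of the shorter GAA lay 82.3%, 81.2% and 86.0% of crosslinks, against 77.1% of positions.

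Host introns were compared for RNAs that lie wholly inside an intron of another gene on the same strand and clear of other exons. Crosslinks per nt in the RNA were set against the rest of the intron, over 1141 nested genes of 50 to 500 nt of any type (two-sided exact binomial test in each library, adjusted over all of them). In 23 genes (2.02%) the RNA was denser than its intron in all libraries, and in 0 (0%) it was sparser, also at an unadjusted p under 0.05, where 35 were denser. A sparser call was hardly reachable, since the RNAs are short and introns held few crosslinks per kb, so the 0 is not read as a result. Of the 39 small nuclear and nucleolar RNAs tested here 20 were denser, all of them snRNAs, but they had to have crosslinks to be chosen, so nothing is read from that count, and the values of single genes below are a description, with no test.

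snoRNAs, which are made from their host introns, did not stand out one by one. Of 86 nested snoRNAs, 72 had no crosslink in any library, and the exact binomial test called 0 denser or sparser, with 0 also at an unadjusted p under 0.05 in all libraries. With so few crosslinks the test could detect only very large differences. Summed, they held 6, 13 and 13 crosslinks in 10.8 kb, or 0.558, 1.21 and 1.21 per kb, and their 82 introns held 0.233, 0.529 and 0.243 per kb. The ratios were 2.39, 2.28 and 4.98. For the 326 nested miRNA genes, which are also cut from host transcripts, the rates were 0.193, 0.804 and 0.225 per kb against 0.183, 0.350 and 0.231 in their introns. The ratios of miRNA genes were 1.06, 2.29 and 0.973. Those of 255 nested processed pseudogenes were 2.62, 4.05 and 3.31, in the range of the snoRNAs. Those of 56 nested misc_RNA genes were 3.29, 5.54 and 2.23, a somewhat wider range. For the single snoRNA with crosslinks in every library, Gm23301 in intron 3 of Rpl17, the rest of the intron had 0 crosslinks against 1, 1 and 5 in the RNA.

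Crosslinks of snoRNAs were also counted by the place of the gene. Box C/D snoRNAs in an intron numbered 86 with 5, 25 and 11 crosslinks, and 86 that overlap an exon of another gene had 15, 92 and 20 (overlapping genes counted once). Box H/ACA snoRNAs in an intron numbered 83 with 0, 11 and 7, and 58 on an exon had 4, 39 and 10. The 336 box H/ACA genes in neither place had 0, 3 and 1. Rates on exons include crosslinks to the overlapping transcript.

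Nested snRNA genes were much denser than their introns. The 168 tested held 8.09, 93.1 and 13.1 crosslinks per kb in replicates 1, 2 and 3, against 0.149, 0.349 and 0.169 in 165 introns, and 68 of them had no crosslink. Gm25682, a U1 gene in a 163715 nt intron, carried 9, 143 and 7 crosslinks in 164 nt, with 2, 13 and 1 in the rest of the intron. Gm23686, a U1 gene in intron 1 of Cyp7b1, carried 20, 192 and 15 against 5, 41 and 7. The U6 gene Gm26129, in intron 2 of Arid4b, carried 9, 15 and 28 against 20, 25 and 19, and the U2 gene Gm25939 carried 21, 21 and 23 against 7, 4 and 3. Gm25101 in Cdh12 (3, 4 and 2 against 0, 1 and 0), Gm25698 (2, 8 and 4 against 0, 0 and 1) and Gm23402 (4, 116 and 20 against 1, 0 and 0) were also among the genes with the highest contrast.

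Contrast was lower elsewhere. Gm25431 carried 4, 22 and 11 crosslinks against 120, 393 and 171 in the intron of 1700030N03Rik, and Gm25930, in Aff4, rested on 2, 2 and 4 against 0 in the intron. Gm23330, in Dnajc5b, carried 4, 181 and 4 against 20, 47 and 25, Gm22264 carried 3, 4 and 2 against 30, 74 and 36, and Gm26110, in Fcgr4, carried 5, 84 and 6 against 1, 5 and 0.

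**Figure D5:**
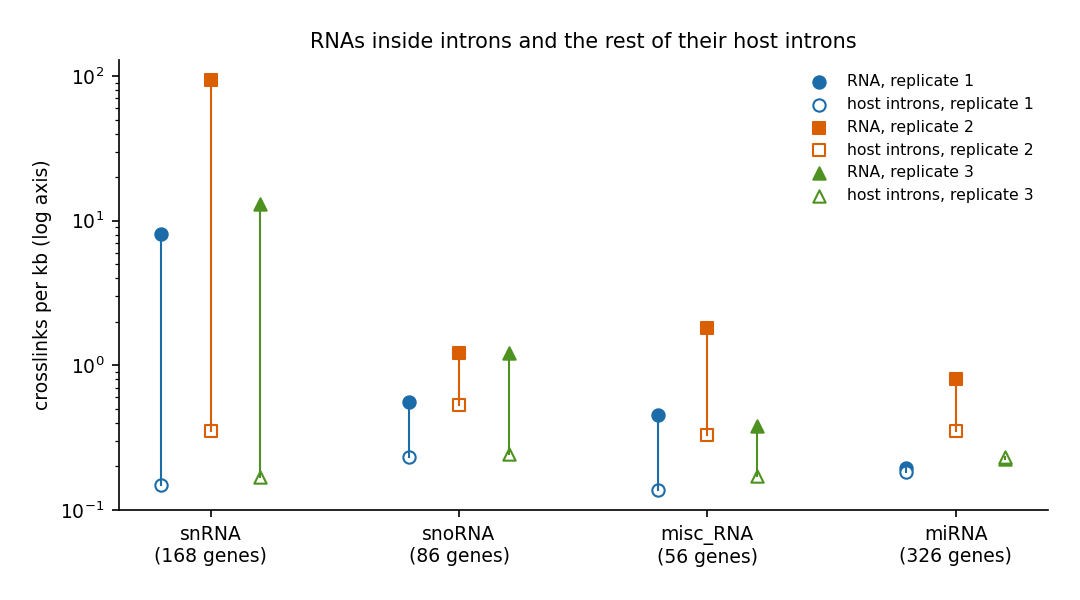
Crosslinks per kb (log axis) in RNAs that lie inside introns (filled) and in the rest of their host introns (open), summed by gene type for each library. The snRNA points lie far above their introns, the snoRNA points 2.28 to 4.98 times above, and the miRNA points 0.973 to 2.29 times their introns.

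Sequence next to the RNAs was not used to choose them. The 100 nt on both sides were denser than the rest of the intron in 4 of 1141 nested genes (0.351%) and sparser in 0 (0%), with 6 and 0 at an unadjusted p under 0.05. Sparser flanks, too, could hardly be called at such low counts. Of the 4 genes with denser flanks, 3 are U1 genes. Gm23686 had 5, 36 and 6 crosslinks in its flanks against 0, 5 and 1 in the rest of the intron (largest adjusted p 2.36e-12, exact binomial test), Gm26244 in Rock1 had 16, 155 and 5 against 6, 8 and 3 (1.83e-07, exact binomial test), and Gm24405 in Kif26b had 2, 18 and 3 against 3, 23 and 4 (0.00418, exact binomial test). Most of these crosslinks lay in the last 2 nt before the annotated first base: 4, 23 and 6 for Gm23686, 16, 141 and 5 for Gm26244 and 2, 14 and 3 for Gm24405. Without these 2 nt none of the 3 was called (largest adjusted p 1.00, exact binomial test), a setting added after the values had been seen, and each listed position counted singly left 0 of the 3 called. Over all 18 U1 genes, the 100 nt upstream held 64, 520 and 44 crosslinks in replicates 1, 2 and 3, of which 61, 455 and 44 lay in the last 2 nt, and the 100 nt downstream held none. In Gm22513 the last 2 nt held 30, 192 and 22 of 30, 201 and 22. For U2, U5 and U6 the upstream counts were 1, 3 and 0, 1, 31 and 0, and 6, 45 and 3.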

How the data were processed

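Crosslinks were measured in 3 libraries of 1 group. The deposited values were counts, whole-number counts of unique cDNAs per crosslinked nucleotide and strand, which the authors made with the iMAPS pipeline, without normalization or pooling. The submitters' processing notes name Trim Galore 0.6.7, Bowtie 1.3.1, STAR 2.7.9a, UMI-tools 1.1.2 and build mm39, in no stated role, and how reads with several possible loci were placed is not given in the sources used here. All sequence names and positions fitted GRCm39. Because molecular barcodes were used, duplicates are removed, and intervals and limits (3 counts for a count of 0) cover counting error only.

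Counts were summed inside GENCODE vM39 genes of the same strand with Python 3.11.15, pandas 2.3.3 and SciPy 1.17.1. Genes without a family name were assigned to a family by BLAST+ 2.17.0 at 80% identity over 60% of the shorter sequence, and other loci were counted as copies at 95% identity over 90% of the length. Midpoints, host introns and flanks were compared by two-sided exact binomial tests in each library with Benjamini-Hochberg adjustment over all genes tested, and the tests were tried on simulated data. Each library was tested alone and a call needed all 3 to pass, so the p-values cover counting error and not the spread between libraries. Sequences were read from GRCm39.

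The genes and lists were chosen with earlier results of these data known. Named genes are the 3 with the highest mean CPM in each type and family, all named spliceosomal, 7SK, RNase P, RNase MRP, telomerase, Y and vault RNA genes, the 5 with the highest and the 5 with the lowest mean log2 fold among called genes, and 2 examples on each side of the rule. Genes near the letters of Sm-like sites, Gm23686 and other called genes beyond these were named after their values were seen. The sequences of the leading U5 and U6 genes are not reported here.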

Additional observations from a re-analysis of the deposited data

Results flagged for a closer look

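Crosslinks just upstream of the annotated first base lay outside the annotated RNAs and entered a comparison only as part of the flanks of nested genes. Summed over the 162 genes, the position 1 nt before the first base held 42, 247 and 44 crosslinks in replicates 1, 2 and 3, and the position 2 nt before it held 27, 287 and 6. These exceeded the limit of 3 that a count of 0 allows. The first base itself held 12, 155 and 4, and the position 3 nt before it 3, 34 and 0. Gm22513 accounted for 25, 120 and 21 of those at the position 1 nt before. No explanation was tested.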

How the results depend on the processing

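No paired analysis was possible because all 3 libraries belonged to 1 group. Of the settings tried on the 7 summary results, 30 values stayed within the stated range of the main value and 12 moved. Requiring at least 2 crosslinks in each library left 83 genes in place of 162, and leaving out a library gave 183 to 275, as fewer libraries to pass can only add genes. Genes uneven across the midpoint numbered 20 in the main test, 12 with each listed position counted singly, 9 for the outer parts of the RNA (the terminal stretches of a length split into 3) and 6 on positions with a unique following 30-mer. They numbered 22 to 31 without 1 library, the highest without replicate 1. On the outer parts Rnu12 reversed to a log2 fold of 0.53 (adjusted p 0.798, exact binomial test). On unique positions Gm23143 reversed to -0.15 (adjusted p 1.00, exact binomial test). RNAs denser than their intron numbered 23 in the main test, 15 against the 500 nt on each side (156 genes tested), 14 on unique positions, and 25 to 40 without 1 library, the highest without replicate 1. Denser flanks fell from 4 genes to 1 with positions counted singly and to 1 without the last 2 nt before the first base, and numbered 4 to 5 without 1 library. The share of crosslinks with a unique following sequence rose from 65.3% to 86.4% with 50 nt in place of 30, and was 61.4% to 69.5% without 1 library. The mean share of the RNA classes was 0.5003% to 1.11% without 1 library. Over the genes called across the midpoint or in their flanks, 112 results kept call and direction, 23 kept the direction but lost the call, and 2 reversed. The causes were not tested, and fewer positions or genes entered several settings. Restriction to unique positions and the omission of the last 2 nt were added after the data had been seen. That restriction applied to the 162 genes only, and other genes kept all their positions, so the 6 and the 14 include unrestricted genes. Depth limits what single genes show, since 79 of 162 had a count of 1 in at least 1 library.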
